A study of Homo sapiens with 6 samples.

Results

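The 40 genes described here carry out or control glycolysis, or are known to respond to low oxygen. They were taken by name from the 58735 genes of the deposited expression table, and each name matched 1 row. The list held 17 glycolytic enzymes, 8 genes of glucose and lactate transport and glycolytic control, and 15 other hypoxia-responsive genes. Levels are in FPKM, fragments scaled to gene length and to library size. A gene was tested where its 6 libraries averaged 1 FPKM or more, and 35 of the 40 were tested for a difference between groups. The 5 that did not reach this level were ALDOC, PDK1, ANKRD37, EGLN3 and CA9, and they are given by level alone.

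TPC1 is an established human papillary thyroid cancer cell line. RNA from 6 samples of this line was sequenced, 3 labelled si-circ_0000839, which received an siRNA meant to silence the circular RNA hsa_circ_0000839, and 3 labelled NC, which received a control siRNA. All cells grew in DMEM with 10% serum and were collected 60 h after transfection, with no hypoxic treatment named in the labels. The labels do not say whether the 3 samples of a group were separate cultures, so p-values measure the spread between these samples alone, and the study holds 1 cell line and 1 time point.

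Glycolysis splits glucose into pyruvate, and lactate dehydrogenase then turns pyruvate into lactate, which leaves the cell through monocarboxylate transporters. When oxygen is scarce, the prolyl hydroxylases that mark hypoxia-inducible factors (HIFs) for destruction slow down, and HIFs bind short DNA elements near many glycolytic genes and near genes of blood vessel growth, pH control and removal of mitochondria. Many cancer cells run much of this programme with oxygen present.

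The core of the DNA element that HIFs bind is ACGTG or GCGTG. In the RefSeq promoter table (build GRCh38.p14), 35 of the 40 genes had an entry, and SLC2A3, VEGFA, NDRG1, BNIP3L and SLC16A1 had none. In the 250 bases before each start site, searched on both strands, a core was found in 39 of 64 windows of these genes (60.9%) and in 15172 of 35116 windows of all genes (43.2%). Counted by gene, 29 of 35 (82.9%) held a core in at least 1 window, against 12945 of 27305 genes (47.4%). Genes with several start sites have more windows and so more chances of a match. Below are stretches of promoter that hold the letters CACGTG, in which ACGTG reads on both strands at once, for 2 genes whose level was lower and 2 whose level was higher in all si-circ_0000839 libraries. The LDHA stretch (chr11:18394313-18394387, plus strand) and the BNIP3 stretch (chr10:131982014-131982173, minus strand) end at the base before the annotated gene. The HK2 stretch (chr2:74834920-74835169, plus strand) and the PFKFB3 stretch (chr10:6202694-6202865, plus strand) lie inside the annotated gene, outside its exons, upstream of an internal start site. They are given 5′ to 3′ on the gene's own strand, with every core match in capitals, and a match describes the letters and is no measure of binding.
LDHA: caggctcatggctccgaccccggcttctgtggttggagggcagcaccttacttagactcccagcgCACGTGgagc
BNIP3: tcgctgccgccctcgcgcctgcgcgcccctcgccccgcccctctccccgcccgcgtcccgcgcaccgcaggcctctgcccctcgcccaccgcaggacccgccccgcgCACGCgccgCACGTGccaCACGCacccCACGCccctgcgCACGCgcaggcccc
HK2: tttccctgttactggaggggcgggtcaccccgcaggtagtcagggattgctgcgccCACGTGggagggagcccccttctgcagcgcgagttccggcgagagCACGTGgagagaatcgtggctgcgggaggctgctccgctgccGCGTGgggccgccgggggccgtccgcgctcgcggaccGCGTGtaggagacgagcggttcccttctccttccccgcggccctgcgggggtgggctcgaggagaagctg
PFKFB3: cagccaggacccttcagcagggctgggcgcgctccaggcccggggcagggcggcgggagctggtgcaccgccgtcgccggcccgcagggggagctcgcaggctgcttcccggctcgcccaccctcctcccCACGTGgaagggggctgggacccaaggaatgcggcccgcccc

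GAPDH, ENO1, PKM, TPI1, PGAM1, LDHA and PGK1, which act between the triose phosphates and lactate, were the most abundant of the 40 genes, from 133 FPKM for PGK1 to 1552 FPKM for GAPDH in the mean of NC. The most abundant transport gene was SLC16A3 at 44.5 FPKM, and the most abundant of the other hypoxia-responsive genes was ADM at 25.9 FPKM. CA9, a carbonic anhydrase widely used as a marker of hypoxia, had 2 reads in all 6 libraries together, and 3 reads would amount to at most 0.0988 FPKM. EGLN3, a prolyl hydroxylase induced by HIF, had 31 reads. ALDOC, the brain-type aldolase, had 46 reads and a mean of 0.126 FPKM in NC and 0.152 FPKM in si-circ_0000839. PDK1, a kinase that shuts pyruvate out of the mitochondrial citric acid cycle, was at 0.506 and 0.496 FPKM. ANKRD37, a HIF target of little known function, was at 0.981 and 0.829 FPKM. By the filter of 1 FPKM, these 5 genes lay under all 35 tested members in level. Of the exon bases of CA9 and ANKRD37, 38.5% and 35.2% lie opposite exons of another gene, and the strand setting of the counting is not given in the sources used here.

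**Figure D1:**
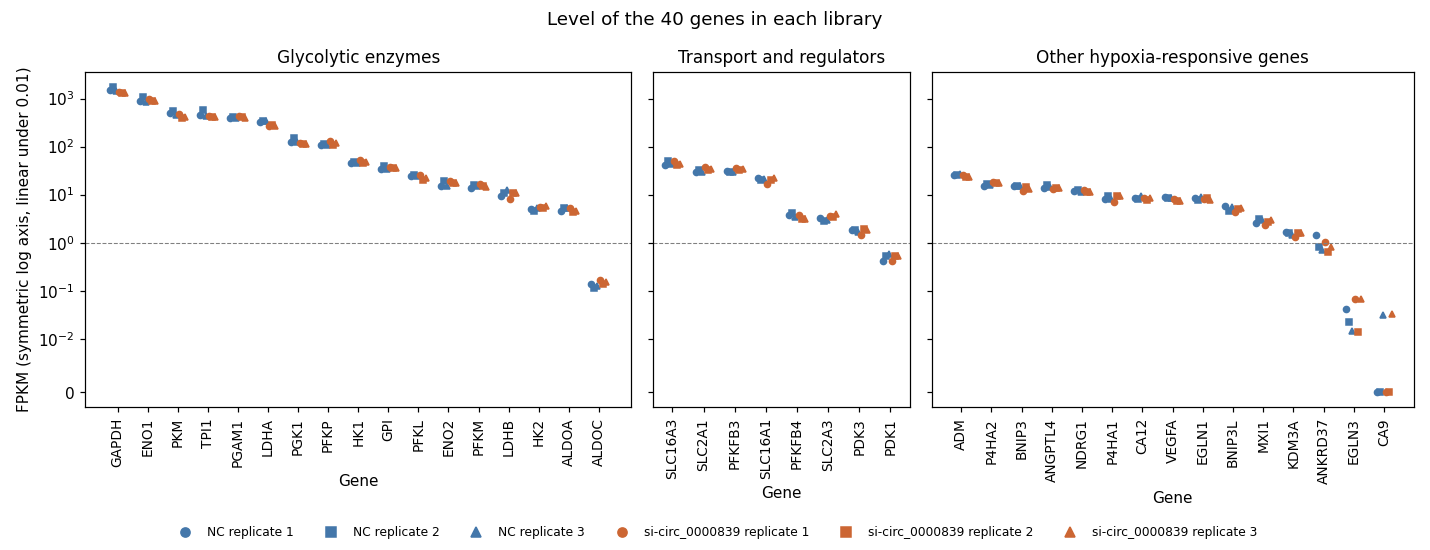
FPKM on a symmetric log axis for each of the 40 genes in each of the 6 libraries, in the 3 groups of genes, with NC in blue and si-circ_0000839 in orange, with a symbol for each replicate. The dashed line is the filter of 1 FPKM; the libraries of a gene lie close together compared with the range between genes, and 5 genes have means under the line.

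NC replicate 2 and si-circ_0000839 replicate 1 stood apart from the other libraries. NC replicate 2 was the highest of the 6 libraries for 8 of 16 tested enzymes and si-circ_0000839 replicate 1 for 6. The median deviation of the enzymes from their mean over the 6 libraries, on the log2 scale, was 0.12 in NC replicate 2 and 0.075 in si-circ_0000839 replicate 1, against -0.057 to -0.019 in the other 4. GC content was taken from the longest annotated transcript of each gene. Of all tested genes, the 2133 with the highest GC content deviated by 0.083 and 0.12 in these 2 libraries. The 2134 with the lowest GC content deviated by -0.058 and -0.14. The signs were opposite in NC replicates 1 and 3 and si-circ_0000839 replicate 2. In that order the values were -0.054, -0.072 and -0.073 for high GC and 0.061, 0.081 and 0.057 for low GC. In si-circ_0000839 replicate 3 they were -0.0012 and 0.0023. Each gene was set against its own mean over the 6 libraries, so a shift in some libraries brings opposite signs in others. These values therefore cannot tell which libraries carried a shift with GC content.

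**Figure D2:**
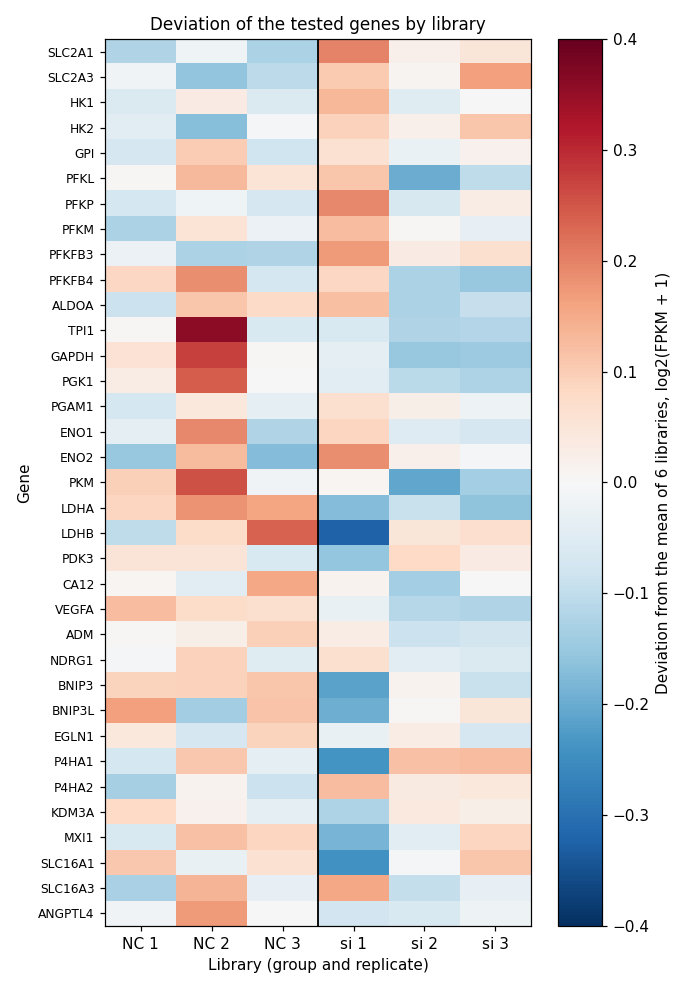
Deviation of each of the 35 tested genes from its mean over 6 libraries, in log2(FPKM + 1), by library, with NC left and si-circ_0000839 right of the line; red is above the mean and blue below. NC replicate 2 and si-circ_0000839 replicate 1 hold most of the strong colours, and LDHA is red in all NC and blue in all si-circ_0000839 libraries.

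LDHA, the enzyme subunit that makes lactate, was at 274 FPKM in si-circ_0000839 against 334 FPKM in NC, and GAPDH, PGK1, TPI1, BNIP3, VEGFA and ANGPTL4 were also lower in every si-circ_0000839 library than in any NC library. The glucose carriers SLC2A1 and SLC2A3, the phosphofructokinase activator gene PFKFB3, HK2 and P4HA2 were higher in every si-circ_0000839 library. None of these differences passed the test. With limma on log2(FPKM + 1) and Benjamini-Hochberg adjustment over the 10674 genes tested, 0 of 35 members had an adjusted p under 0.05, and over all tested genes 41 did (0.384%, 0.131% higher and 0.253% lower). At an unadjusted p under 0.05 there were 9 members, 3 higher and 6 lower in si-circ_0000839, against 12.6% of all tested genes (6.31% higher and 6.31% lower). With voom, a limma test run on read counts recovered from the FPKM values, 1 member passed, LDHA, and 0.796% of all tested genes. With a quality weight for each library in limma 9 members passed, and 18.4% of all tested genes. In 12 members the 3 si-circ_0000839 libraries did not overlap the 3 NC libraries, 5 above and 7 below, against 18.1% of all tested genes (10.6% above and 7.55% below). The log2 change was below 0 for 22 members and above 0 for 13, with a median of -0.043. Over all tested genes the median was 0.0057, and 48.2% were below 0. On this scale the changes of members ran from -0.28 for LDHA to 0.19 for SLC2A3. In bulk RNA, fewer cells making a transcript and less of it per cell cannot be told apart.

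**Figure D3:**
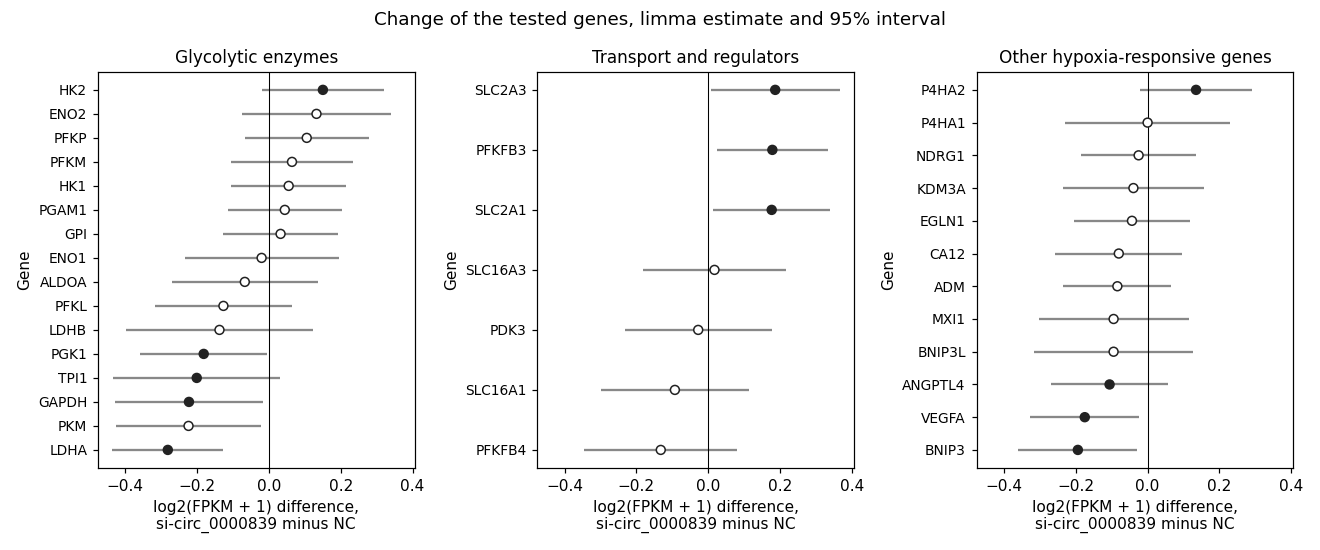
Difference in log2(FPKM + 1), si-circ_0000839 minus NC, with the 95% interval of limma, for the 35 tested genes in their 3 groups. Filled points mark the 12 genes whose libraries do not overlap between groups; LDHA has the interval farthest from 0, from -0.44 to -0.13.

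The median GC content of the longest annotated transcript was 54.6% in the 7 members that lay below NC with no overlap. It was 51.2% in the 5 that lay above and 52.7% in the 23 that overlapped. With a trend on GC content and gene length removed from every library, 3 members passed in limma, LDHA (adjusted p 0.0257), VEGFA (adjusted p 0.0367) and GAPDH (adjusted p 0.0404), all lower in si-circ_0000839, while 2.06% of all tested genes passed. Without NC replicate 2 and si-circ_0000839 replicate 1 0 members passed in limma against 0.187% of all tested genes, 11 had an unadjusted p under 0.05 against 17.6%, and the limma adjusted p of LDHA was 0.101. Then 26 members did not overlap, 11 above and 15 below, against 49.9% of all tested genes (28.6% above and 21.4% below). With NC replicate 2 alone left out, 0 members passed against 0.281% of all tested genes, the limma adjusted p of LDHA was 0.0875, and 10 members lay above and 9 below with no overlap, against 37.1% of all tested genes (22.2% above and 14.8% below).

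Among the glycolytic enzymes, 16 of 17 were tested and 0 passed in limma (4 at an unadjusted p under 0.05, and 1, LDHA, with voom). That unadjusted p was reached by 12.6% of all tested genes. The log2 change was below 0 for 9 enzymes and above 0 for 7, and below 0 for 48.2% of all tested genes. The median log2 change of the enzymes was -0.044, and it was 0.021 without NC replicate 2. In 4 enzymes (LDHA, GAPDH, PGK1 and TPI1) every si-circ_0000839 library lay below every NC library, and in 1 (HK2) every one lay above. Over all tested genes 7.55% lay below and 10.6% above in this way. LDHA (ENSG00000134333, chr11:18394388-18408425, GRCh38), the subunit of lactate dehydrogenase that makes lactate from pyruvate, was at 321, 342 and 338 FPKM in NC replicates 1 to 3. It was at 268, 284 and 270.3 FPKM in si-circ_0000839 replicates 1 to 3. Both groups were tight and well apart, at 334 ± 11.3 and 274 ± 8.95 FPKM (mean ± SD, n = 3 each). The log2 change of LDHA was -0.28 (SE 0.070) with a limma adjusted p of 0.132, the smallest p among the members. With voom its adjusted p was 0.0328. Near-identical processed copies of LDHA, 6 rows of the table, took 0.0422% of the reads of gene and copies together.

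PKM (ENSG00000067225, chr15:72199029-72231822), pyruvate kinase, which makes pyruvate and ATP in the last step, was at 496, 553 and 459 FPKM in NC and at 467, 401 and 422 FPKM in si-circ_0000839. The highest si-circ_0000839 library, replicate 1, lay above the lowest NC library, so the groups overlapped. Its log2 change was -0.22 (SE 0.092), with a limma adjusted p of 0.348. GAPDH (ENSG00000111640, chr12:6533927-6538374), glyceraldehyde-3-phosphate dehydrogenase, was the most abundant member, at 1490.3, 1731 and 1436 FPKM in NC and 1396, 1289 and 1295 FPKM in si-circ_0000839. NC replicate 2 stood above the other 5 libraries. The lowest NC library, replicate 3, was at 1436 FPKM, against 1396 FPKM in the highest si-circ_0000839 library, replicate 1. The log2 change of GAPDH was -0.22 (SE 0.093, limma adjusted p 0.359), and -0.14 without NC replicate 2. GAPDH is often used to scale other measurements, and here its means of 1552 ± 157 and 1327 ± 60.4 FPKM (SD, n = 3) differed by more than either SD, without passing the test. Its 62 annotated copies held 0.279% of the reads of gene and copies together.

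PGK1 (ENSG00000102144, chrX:77910739-78129296), phosphoglycerate kinase and the first ATP-forming step, was at 127, 148 and 124 FPKM in NC and 121, 116 and 114 FPKM in si-circ_0000839. All NC libraries were above all si-circ_0000839 libraries, and NC replicate 2 was again the highest. The log2 change of PGK1 was -0.18 (SE 0.080, limma adjusted p 0.383), and -0.11 without NC replicate 2. TPI1, triosephosphate isomerase, showed the same layout, at 456, 584 and 436 FPKM in NC and 436, 418 and 419 FPKM in si-circ_0000839. Between TPI1 in NC replicate 3 and in si-circ_0000839 replicate 1 the gap was under 1 FPKM. The log2 change of TPI1 was -0.20 (limma adjusted p 0.469), and -0.072 without NC replicate 2.

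ENO1 (ENSG00000074800, chr1:8861000-8879250), the main enolase, showed no such separation, at 911, 1070.1 and 860.4 FPKM in NC and 994, 904 and 895 FPKM in si-circ_0000839. Its log2 change was -0.020 (SE 0.097), with a 95% interval from -0.23 to 0.19 and a limma adjusted p of 0.957. PGAM1, phosphoglycerate mutase, had means of 400.0 and 412 FPKM and a log2 change of 0.044. Of the lower pathway, TPI1, GAPDH, PGK1, PKM and LDHA were below NC in the mean, while PGAM1 was above and ENO1 was close to 0. None of these differences passed in limma, and the 95% interval of PGAM1 ran from -0.11 to 0.20.

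Of the upper steps, HK2, the hexokinase isoform often high in tumours, was at 5.01, 4.51 and 5.16 FPKM in NC and 5.61, 5.29 and 5.699 FPKM in si-circ_0000839. Every si-circ_0000839 library was above every NC library, by small margins, and the log2 change was 0.15 (SE 0.076, limma adjusted p 0.454). HK1, the widely expressed hexokinase, was far more abundant than HK2, at 46.02 and 47.9 FPKM. GPI, which turns glucose-6-phosphate into fructose-6-phosphate, was at 35.5 and 36.3 FPKM. The phosphofructokinase genes PFKP (platelet type), PFKL (liver type) and PFKM (muscle type) had NC means of 111, 24.97 and 14.8 FPKM and si-circ_0000839 means of 119, 22.9 and 15.5 FPKM. In each of these 5 genes the groups overlapped.

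The remaining enzymes were ENO2, LDHB and ALDOA, and all 3 overlapped between groups. ENO2, the neuronal enolase that also responds to hypoxia, was at 16.4 and 18.05 FPKM in NC and si-circ_0000839, LDHB, the heart-type lactate dehydrogenase subunit, at 10.9 and 9.88 FPKM, and ALDOA, the main aldolase, at 4.98 and 4.71 FPKM. ENO2 (chr12:6913745-6923698) lies near GAPDH and TPI1 (chr12:6867119-6870948) on chromosome 12, and its mean was above NC while theirs were below. The level of ALDOA was low beside its neighbours in the pathway. In the annotation, 1657 of its 3916 exon bases (42.3%) are shared on the same strand with the annotated gene AC093512.2 (0.847 FPKM), and 997 of the 2983 exon bases of LDHB (33.4%) with AC010197.2, which was listed at 0. Whether reads in shared bases were dropped or split by the counting is not given in the sources used here, so the levels of ALDOA and LDHB are uncertain.

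**Figure D4:**
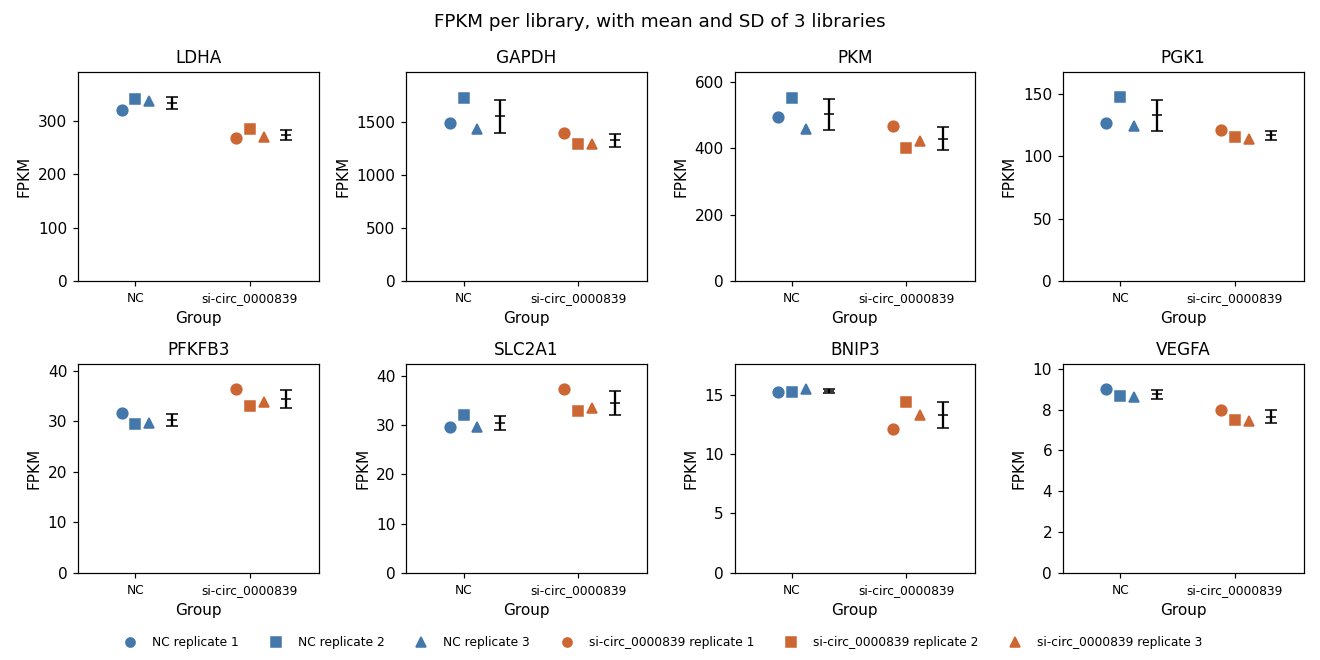
FPKM in each library for LDHA, GAPDH, PKM, PGK1, PFKFB3, SLC2A1, BNIP3 and VEGFA, with axes from 0, NC in blue and si-circ_0000839 in orange, and the mean with SD of 3 libraries beside them. LDHA, GAPDH, PGK1, BNIP3 and VEGFA lie lower in all si-circ_0000839 libraries, PFKFB3 and SLC2A1 higher, and PKM overlaps.

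In the transport and control genes, the glucose carriers and PFKFB3 were higher in every si-circ_0000839 library than in any NC library. Of 8 genes 7 were tested and 0 passed in limma (3 at an unadjusted p under 0.05, and 0 with voom), with 4 above 0 and 3 below and a median log2 change of 0.017. That unadjusted p was reached by 12.6% of all tested genes. In 3 of the 7 (SLC2A1, SLC2A3 and PFKFB3) the groups did not overlap, 3 above NC and 0 below. Over all tested genes 10.6% lay above and 7.55% below in this way. PFKFB3 (ENSG00000170525, chr10:6144934-6254644), which makes fructose-2,6-bisphosphate, the strongest activator of phosphofructokinase, was at 31.7, 29.4 and 29.6 FPKM in NC and 36.4, 32.96 and 33.8 FPKM in si-circ_0000839. The groups were apart, with si-circ_0000839 replicate 1 highest, at means of 30.2 ± 1.28 and 34.4 ± 1.78 FPKM (SD, n = 3). The log2 change of PFKFB3 was 0.18 (SE 0.070, limma adjusted p 0.327).

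SLC2A1 (ENSG00000117394, chr1:42925375-42959176) encodes GLUT1, the main glucose carrier of most cancer cells. It was at 29.7, 31.9 and 29.6 FPKM in NC and 37.3, 32.8 and 33.5 FPKM in si-circ_0000839, and si-circ_0000839 replicate 1 was again highest while replicate 2 was less than 1 FPKM above NC replicate 2. Its log2 change was 0.18 (SE 0.074, limma adjusted p 0.355). SLC2A3 (ENSG00000059804, chr12:7919230-7936275), GLUT3, a high-affinity glucose carrier, was at 3.297, 2.89 and 3.04 FPKM in NC and 3.67, 3.38 and 3.86 FPKM in si-circ_0000839. The lowest si-circ_0000839 library was just above the highest NC library, and the log2 change was 0.19 (SE 0.081, limma adjusted p 0.375).

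PFKFB4 (ENSG00000114268, chr3:48517684-48562015), a relative of PFKFB3 with more phosphatase activity, was at 3.83, 4.197 and 3.35 FPKM in NC and 3.83, 3.18 and 3.11 FPKM in si-circ_0000839. The groups overlapped and the mean was lower in si-circ_0000839, with a log2 change of -0.13 (SE 0.096, limma adjusted p 0.621), and -0.072 without NC replicate 2. SLC16A3 (ENSG00000141526, chr17:82228397-82261129), MCT4, the hypoxia-responsive lactate exporter and the most abundant gene of this group, was at 40.8, 49.2 and 43.6 FPKM in NC and 49.8, 41.8 and 43.7 FPKM in si-circ_0000839. Its highest libraries were NC replicate 2 and si-circ_0000839 replicate 1, and the log2 change was 0.017 (SE 0.090, limma adjusted p 0.959). SLC16A1, MCT1, which carries lactate in either direction, was at 20.9 and 19.6 FPKM, and PDK3, a pyruvate dehydrogenase kinase, at 1.77 and 1.73 FPKM, both with overlapping groups.

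The other hypoxia-responsive genes had means mostly below NC. Of 15, 12 were tested and 0 passed in limma (2 at an unadjusted p under 0.05, and 0 with voom), with 10 below 0 and 2 above and a median log2 change of -0.082. Over all tested genes 12.6% had an unadjusted p under 0.05, and 48.2% had a log2 change below 0. In 3 members of this group (BNIP3, VEGFA and ANGPTL4) all si-circ_0000839 libraries lay below all NC libraries, and in 1 (P4HA2) above. Over all tested genes these shares were 7.55% below and 10.6% above. BNIP3 (ENSG00000176171, chr10:131966455-131982013), an outer mitochondrial membrane protein that starts removal of mitochondria, was at 15.2, 15.2 and 15.5 FPKM in NC and 12.1, 14.4 and 13.3 FPKM in si-circ_0000839. The NC libraries were almost equal, while the si-circ_0000839 libraries spread more, with replicate 1 lowest. The means were 15.3 ± 0.135 and 13.3 ± 1.12 FPKM (SD, n = 3), and the log2 change was -0.19 (SE 0.075, limma adjusted p 0.323). BNIP3 has 39 annotated copies, which held 0.543% of the reads of gene and copies together.

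VEGFA (ENSG00000112715, chr6:43770184-43786487), the growth factor that drives new blood vessels, was at 9.01, 8.65 and 8.603 FPKM in NC and 8.0, 7.49 and 7.44 FPKM in si-circ_0000839. The groups were apart, at 8.76 ± 0.223 and 7.64 ± 0.308 FPKM (SD, n = 3), with a log2 change of -0.17 (SE 0.069, limma adjusted p 0.330). ANGPTL4 (ENSG00000167772, chr19:8363289-8374373), a secreted inhibitor of lipoprotein lipase, was at 14.04, 16.1 and 14.2 FPKM in NC and 13.4, 13.6 and 13.99 FPKM in si-circ_0000839. NC replicate 2 was high and the lowest NC library was barely above the highest si-circ_0000839 library, with a log2 change of -0.11 (SE 0.074, limma adjusted p 0.603), and -0.046 without NC replicate 2.

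P4HA2 (ENSG00000072682, chr5:132191838-132295315), a subunit of the prolyl hydroxylase that matures collagen, was at 15.3, 17.02 and 15.8 FPKM in NC and 18.4, 17.3 and 17.4 FPKM in si-circ_0000839. It was the 1 gene of this group with all si-circ_0000839 libraries above NC, with a log2 change of 0.14 (SE 0.070, limma adjusted p 0.465). Its sister subunit P4HA1 was at 8.505 and 8.56 FPKM with overlapping groups. ADM (ENSG00000148926, chr11:10304680-10307397), the vasodilator peptide adrenomedullin, was at 25.2, 25.6 and 26.9 FPKM in NC and 25.7, 23.6 and 23.8 FPKM in si-circ_0000839. Here 1 si-circ_0000839 library, replicate 1, lay within the NC range and the other 2 below it, with a log2 change of -0.084 (SE 0.068, limma adjusted p 0.660).

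The other members of this group overlapped between groups. NDRG1, a stress-responsive gene, was at 11.9 and 11.7 FPKM in NC and si-circ_0000839. CA12, a carbonic anhydrase of the cell surface, was at 8.69 and 8.16 FPKM, and EGLN1, the main oxygen-sensing prolyl hydroxylase, at 8.31 and 8.03 FPKM. The levels of CA12 and EGLN1 stood well above those of their relatives CA9 and EGLN3. BNIP3L, a relative of BNIP3 in mitochondrial removal, was at 5.33 and 4.92 FPKM. MXI1, a repressor that opposes MYC, was at 2.88 and 2.64 FPKM, and KDM3A, a histone demethylase, at 1.56 and 1.496 FPKM.

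Because FPKM is per gene length, isozymes could be set side by side within a library, as the share of 1 gene in the summed FPKM of the genes named. The sums left out the hexokinase relative HKDC1 (61.96 and 56.3 FPKM in NC and si-circ_0000839) and the enolase gene ENO3 (16.4 and 15.3 FPKM). For all 40 members that length was the union of all annotated exons of the gene, so the shares are not exact proportions of transcripts. Of 9 such shares, computed with no test, 4 did not overlap between groups. For single genes 18.1% of all tested genes did not overlap, and no such figure was computed for shares. PFKP made up 74.4%, 73.0% and 73.4% of phosphofructokinase FPKM in the NC libraries and 75.6%, 75.4% and 76.0% in the si-circ_0000839 libraries. PFKL made up 16.3%, 16.8% and 16.6% in NC and 14.8%, 14.2% and 14.4% in si-circ_0000839. The 2 shares are bound to each other, since PFKM kept to 9.82% ± 0.404 and 9.84% ± 0.482 (SD, n = 3). PFKFB3 held 88.9% ± 1.203 of the FPKM of PFKFB3 and PFKFB4 in NC and 91.1% ± 0.562 in si-circ_0000839. ENO2 held 1.70% ± 0.0414 of the enolase FPKM of ENO1 and ENO2 in NC and 1.90% ± 0.0330 in si-circ_0000839. LDHA held 96.8% ± 0.322 of the LDHA and LDHB sum in NC and 96.5% ± 0.496 in si-circ_0000839, with overlap. This share carries the uncertain level of LDHB, whose exons are partly shared with another annotated gene. HK2 with HK1, SLC2A3 with SLC2A1, and SLC16A3 with SLC16A1 also overlapped between groups.

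**Figure D5:**
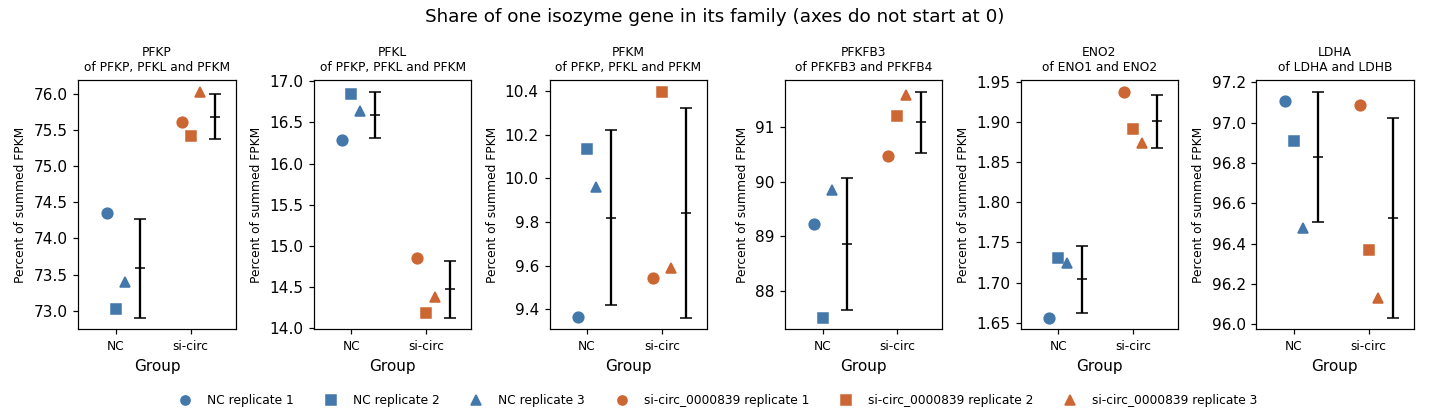
Share of the named gene in the summed FPKM of its family, in percent, for each library, with the mean and SD of 3 libraries beside the points; axes do not start at 0. The shares of PFKP, PFKFB3 and ENO2 lie higher in all si-circ_0000839 libraries, that of PFKL lower, and those of PFKM and LDHA overlap.

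Summed over the 17 enzymes, FPKM was 4449, 5127 and 4315 in NC and 4408, 4089 and 4090.5 in si-circ_0000839, with overlap, since si-circ_0000839 replicate 1 lay above NC replicate 3. As a share of all FPKM in a library the enzymes took 1.51%, 1.58% and 1.47% in NC and 1.44%, 1.39% and 1.38% in si-circ_0000839, which do not overlap. The 8 transport and control genes summed to 133.4, 139.8 and 132.5 FPKM in NC and 149.8, 136.6 and 142.1 FPKM in si-circ_0000839, with overlap. Their share of all FPKM was 0.0454%, 0.0430% and 0.0452% in NC and 0.0488%, 0.0466% and 0.0479% in si-circ_0000839, higher in every si-circ_0000839 library. The 15 hypoxia-responsive genes summed to 127.0 to 130.3 FPKM in NC and 122.6 to 123.5 FPKM in si-circ_0000839, which do not overlap, but their share of all FPKM overlapped between groups. These sums rest on their most abundant genes.

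The genes around these members were taken in lists of the same kind. Of the HIF machinery, 11 of 14 genes were tested and 0 passed in limma (1 at an unadjusted p under 0.05, and 0 with voom), with 5 above 0 and 6 below. That unadjusted p was reached by 12.6% of all tested genes. EPAS1, which encodes HIF-2alpha, was at 9.75, 8.43 and 9.07 FPKM in NC and 7.32, 6.93 and 6.74 FPKM in si-circ_0000839. All NC libraries were above all si-circ_0000839 libraries, with a log2 change of -0.33 (SE 0.076, limma adjusted p 0.108). HIF1A, which encodes HIF-1alpha, was at 21.6 ± 3.35 and 19.2 ± 1.73 FPKM (SD, n = 3), with a limma adjusted p of 0.619. Its partner ARNT was at 6.23 and 6.77 FPKM, HIF1AN, the asparagine hydroxylase that restrains HIF activity, at 6.71 and 7.41 FPKM, and VHL, the ubiquitin ligase part that recognises hydroxylated HIF, at 23.8 and 24.3 FPKM. HIF proteins are controlled mainly by their stability, which RNA levels do not measure.

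In a further list of 25 hypoxia-responsive genes, 21 were tested and 1 passed in limma and with voom, upward in si-circ_0000839, with 10 above 0, 11 below and a median log2 change of -0.0096. At an unadjusted p under 0.05 there were 6, 3 higher and 3 lower, and in 6 the groups did not overlap, 3 above NC and 3 below. Over all tested genes these shares were 12.6% and 18.1%, the latter 10.6% above and 7.55% below. DDIT4, a stress-induced brake on mTOR signalling, was at 20.4 ± 1.88 FPKM in NC and 15.3 ± 1.36 FPKM in si-circ_0000839 (SD, n = 3), with a limma adjusted p of 0.106. WSB1, a ubiquitin ligase subunit, was at 5.86 and 4.74 FPKM (limma adjusted p 0.272). PLOD1, a lysyl hydroxylase of collagen, was at 48.6 ± 3.85 and 57.2 ± 4.58 FPKM (SD, n = 3, limma adjusted p 0.289), and KDM4B, a histone demethylase, at 3.27 and 3.85 FPKM (limma adjusted p 0.388). PLOD1 and KDM4B were higher, and DDIT4 and WSB1 lower, in every si-circ_0000839 library than in any NC library. These 4 genes were chosen after their values were seen.

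Of the 17 other glycolytic isozymes and side enzymes, 5 were tested and 0 passed, 0 at an unadjusted p under 0.05 in limma and 0 with voom. HKDC1, a hexokinase relative, was at 61.96 and 56.3 FPKM, above the levels of HK1 and HK2. BPGM, which makes 2,3-bisphosphoglycerate, was at 4.86 and 4.57 FPKM. For the entry of pyruvate into mitochondria, 11 of 12 genes were tested and 0 passed, 0 at an unadjusted p under 0.05 and 0 with voom. The pyruvate carrier genes MPC2 and MPC1 were at 18.4 and 7.94 FPKM in NC and 16.95 and 7.23 FPKM in si-circ_0000839.

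All 7 genes of the pentose phosphate pathway, which draws glucose-6-phosphate away for nucleotides and NADPH, were tested and 0 passed in limma (1 at an unadjusted p under 0.05, and 0 with voom). That unadjusted p was reached by 12.6% of all tested genes. RPIA, ribose-5-phosphate isomerase, was at 15.3, 15.2 and 16.7 FPKM in NC and 18.97, 19.1 and 18.7 FPKM in si-circ_0000839. Its groups were apart, with a log2 change of 0.26 (SE 0.068, limma adjusted p 0.168). PGLS, which acts 1 step after the entry enzyme, was at 31.1 and 28.3 FPKM. Of 11 other glucose and monocarboxylate carriers and their partners, 5 were tested and 0 passed, 0 at an unadjusted p under 0.05 and 0 with voom. BSG, the chaperone that takes MCT1 and MCT4 to the cell surface, was at 242 and 262 FPKM, and its relative EMB at 2.03 and 1.64 FPKM.

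Markers of the cell type were checked in the same table. PAX8, a thyroid lineage factor, was at 95.8 ± 2.21 and 96.3 ± 5.26 FPKM (SD, n = 3), while NKX2-1, TSHR and SLC5A5, which mark differentiated thyroid cells, were at 0 in all libraries, and TG, thyroglobulin, was at 0.143 and 0.129 FPKM. Among epithelial markers, KRT8 was at 208 and 190.1 FPKM (limma adjusted p 0.597) and KRT18 at 116 and 101 FPKM (limma adjusted p 0.452), both with overlapping groups. KRT19 had 12 reads in all, EPCAM was under the filter at 0.861 and 0.815 FPKM, and CDH1 was at 0. Of the leukocyte markers, PTPRC and CD3E were at 0 and CD68 had 6 reads in all. The fibroblast marker COL1A1 was at 0.367, 0.314 and 0.428 FPKM in NC and 0.622, 0.502 and 0.57 FPKM in si-circ_0000839. PDGFRB was at 0.152, 0.123 and 0.132 FPKM in NC and 0.260, 0.171 and 0.160 FPKM in si-circ_0000839. In COL1A1 and PDGFRB, 2 of the 4 fibroblast markers, the groups do not overlap, at levels under the filter, while COL1A2 had 1 read and DCN 4 reads in all. Their part in the results above was not tested. The recovered reads per library ran from 18399558 to 19334633, and reads of the circular RNA itself were not analysed here.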

How the data were processed

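The authors deposited 1 table of FPKM values for 58735 genes in 6 libraries, with gene lengths and coordinates, per the file headers. The submitters' processing notes name HISAT2 2.0.5 and featureCounts 1.5.0-p3. For the genome build and the strand setting no source used here gives a value, and every gene had the position it has in GENCODE 29 (GRCh38). Multiplied by gene length, all FPKM values were whole multiples of a step per library (within 0.01), from which reads per gene were recovered. The authors' scaling total was 0.958 to 1.02 times these reads.

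Groups came from sample titles. Genes averaging 1 FPKM or more, 10674 in all, were tested in limma 3.58.1 under R 4.3.3, on log2(FPKM + 1) with a prior variance that follows the mean. Tests were two-sided with Benjamini-Hochberg adjustment over all of them, and a gene passes at an adjusted p under 0.05. Changes on this scale understate those of low genes. The members and lists were chosen with earlier results of these data known. Full values are given for the 4 members with the smallest p and the 3 most abundant in each of the 3 groups of genes, with TPI1 and HK2 added after their values were seen. Further lists give their called genes or else the 2 with the smallest p, and HIF1A, EPAS1, ARNT and VHL, with ENO3 given for its level alone. The called gene that this rule takes in the further hypoxia-responsive list is not reported here, and the genes named from that list were chosen after their values were seen. Alternatives were other pseudocounts, filters, scalings, priors and weights, voom, a replicate block, a GC and length correction, and libraries left out.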

Additional observations from a re-analysis of the deposited data

How the results depend on the processing

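Members past the threshold numbered 0 in limma and under the other settings tried, except 1 with voom, 9 with library quality weights and 3 with the GC and length trend removed. The quality weights ran from 0.262 for NC replicate 2 to 7.66 for si-circ_0000839 replicate 3, and that fit called 18.4% of all tested genes. Of 694 member values under 20 alternatives, 652 kept their direction and their side of the threshold, 13 passed it and 29 changed sign. The sign changed in 10 members and in none of the other 25 under these 20 settings. LDHA ran from -0.31 to -0.25, with an adjusted p of 0.00268 to 0.461 in limma and voom over all settings, and passed under 3 settings.

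Genes past the threshold in the whole table numbered 14 higher and 27 lower. The higher count was 1 with no filter, 33 with a minimum of 5 FPKM, 32 as TPM, 29 with quantile normalization, 48 with voom, 1072 with quality weights, 51 for protein-coding genes alone, 111 with the GC and length trend removed, 9 without si-circ_0000839 replicate 1 and NC replicate 2, and 5 to 18 with each library left out. The lower count was 3 with no filter, 897 with quality weights, 74 for protein-coding genes alone, 109 with the GC and length trend removed, 11 without both libraries, and 15 to 19 with each library left out. The cause of these shifts was not tested.

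Members above NC with no overlap (5) numbered 8 as TPM, 11 without both libraries and 5 to 10 with each library left out, and members below NC (7) numbered 15 without both libraries and 7 to 12 with each library left out. Over all tested genes the share above NC (10.6%) was 15.4%, 28.6% and 13.2% to 22.2% in these settings, and the share below (7.55%) was 21.4% without both libraries and 10.6% to 14.8% with each library left out. The median of the transport and control genes (0.017) was 0.097 with a minimum of 5 FPKM, -0.025 with the GC and length trend removed, 0.061 without both libraries and -0.0097 to 0.090 with each library left out. The median of the enzymes (-0.044) changed sign, from -0.087 to 0.021 with each library left out, where it was above 0 without NC replicate 2, and to 0.0075 without both libraries. The median of the other hypoxia-responsive genes (-0.082) ran from -0.085 to -0.052 with each library left out.

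The log2 changes of members whose sign changed were as follows. GPI was at -0.022 and SLC16A3 at -0.042 with the GC and length trend removed. ENO1 was at 0.0026 as TPM, 0.024 with quantile normalization and 0.023 without both libraries. With quality weights LDHB was at 0.0058, PDK3 at 0.023, MXI1 at 0.054 and SLC16A1 at 0.0098. In limma without weights they were at -0.14, -0.028, -0.095 and -0.093. Without both libraries PDK3 was at 0.061, KDM3A at 0.011 and MXI1 at 0.010. P4HA1 was at -0.00086 and -0.00039 with pseudocounts of 0.1 and 0.5, -0.0065 with quantile normalization and -0.0065 with voom. With each library left out, ENO1 ran from -0.086 to 0.071, PDK3 from -0.075 to 0.043, NDRG1 from -0.063 to 0.015, P4HA1 from -0.061 to 0.12, KDM3A from -0.069 to 0.012, SLC16A1 from -0.17 to 0.0056 and SLC16A3 from -0.055 to 0.090.

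Same-numbered samples of the 2 groups deviated with correlations of -0.149, -0.289 and 0.150 for numbers 1 to 3, so the numbers were not taken as a pairing. With the number as a replicate block, 0 members passed in limma, 1 had an unadjusted p under 0.05, and the adjusted p of LDHA was 0.355. At the depth reached, 3 reads correspond to 0.153 to 0.165 FPKM for a gene of 1 kb.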
